A study of Mus musculus with 10 samples.

Results

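The transcripts described here encode the signalling core that mature T cells share: the CD3 chains (Cd3d, Cd3e and Cd3g), the zeta chain (Cd247), the coreceptors (Cd4, Cd8a and Cd8b1) and the kinases LCK and ZAP70. They were chosen by gene symbol, and all 9 were found among the 18223 genes of the deposited table. RNA came from 10 whole tumours under the skin, formed by the mouse colon adenocarcinoma line MC38; 5 carry the label high tumour burden (HTB) and 5 the label low tumour burden (LTB). HTB tumours are labelled with 2000000 and LTB tumours with 500000, each over 14 days, taken here to be cells injected and days of growth. No genotype, age, drug or measured tumour size was given, and the labels do not state that each library came from a different mouse. All p-values therefore measure the spread between these libraries.

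The T cell receptor binds peptide presented by MHC molecules but has no signalling domain of its own. It signals through the CD3 and zeta chains, whose cytoplasmic tails carry immunoreceptor tyrosine-based activation motifs (ITAMs). CD4 and CD8 bind MHC class II and class I respectively and bring LCK to the receptor; LCK phosphorylates the paired tyrosines of an ITAM, and ZAP70 docks there and phosphorylates the adaptors downstream. In tumours, CD8 T cells are known as killers of tumour cells and CD4 T cells as helpers or, when they express FOXP3, as regulatory cells. Several of these genes are not restricted to T cells: natural killer cells use CD247, LCK and ZAP70, and some mouse dendritic cells carry CD8 alpha or CD4.

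The stretches that couple these proteins to each other are shown as coding sequence, because they define how the members work together. They were read from GENCODE M21 transcripts on GRCm38, 5′ to 3′. An ITAM was searched as a tyrosine codon with a leucine or isoleucine codon 3 positions later, then a second such pair after 6 to 8 codons. Capitals mark the tyrosine codons that LCK phosphorylates.
Cd3d ITAM: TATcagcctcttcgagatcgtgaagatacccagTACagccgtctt
Cd3e ITAM: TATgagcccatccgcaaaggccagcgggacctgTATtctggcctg
Cd3g ITAM: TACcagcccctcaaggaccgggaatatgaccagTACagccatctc
Cd247 ITAM 1: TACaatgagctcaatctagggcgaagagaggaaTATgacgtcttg
Cd247 ITAM 2: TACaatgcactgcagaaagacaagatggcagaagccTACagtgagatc
Cd247 ITAM 3: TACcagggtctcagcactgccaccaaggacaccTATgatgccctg
Each CD3 gene held 1 ITAM and Cd247 held 3. Every stretch was 45 bases long except the second of Cd247, at 48, and every one crossed an exon junction. On the genome they lie, introns included, at chr9:44986095-44986311 (Cd3d, plus strand), chr9:44999549-45000440 (Cd3e, minus), chr9:44970735-44971268 (Cd3g, minus), and chr1:165856451-165857454, chr1:165858473-165859260 and chr1:165859819-165861042 (Cd247, plus).

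The contact between coreceptor and kinase runs through cysteines that share a zinc ion. The cysteine codons, in capitals, are shown for the tails of both coreceptors and for the amino-terminal end of LCK.
Cd4 tail, codons 444 to 447: TGCcagTGCccc
Cd8a tail, codons 227 to 230: TGCaaaTGTccc
Lck, codons 20 to 23: TGTgaaaacTGC
These stretches lie within single exons at chr6:124866606-124866617 (minus strand), chr6:71375905-71375916 (plus) and chr4:129558117-129558128 (minus). The same coreceptor pattern (cysteine, any residue, cysteine, proline) occurred 0 times in the 213 codons of Cd8b1. Cd8a and Cd8b1, whose proteins pair as CD8 alpha and beta, are also neighbours on chromosome 6, at 71373427 to 71379171 and 71322812 to 71337451. Cd4 lies farther along the same chromosome, at 124864693 to 124888248.

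The 3 CD3 genes form a cluster on chromosome 9. In the deposited annotation Cd3g spans 44969572 to 44980431, Cd3d 44981769 to 44987052 and Cd3e 44998735 to 45009664. The deposited table lists Cd3e on the plus strand, whereas GENCODE M21 has it on the minus strand; the other 8 strands are the same in both. The remaining genes lie on chromosome 1 (Zap70, 36761798 to 36782821, and Cd247, 165779942 to 165871153) and chromosome 4 (Lck, 129548344 to 129573641). Cd3g and Cd3d are transcribed away from each other, and their RefSeq start sites on GRCm38.p6 are 1355 bases apart. The 250 bases before each start site are shown for this divergent pair. Cd3g and Cd3d both had lower mean levels in HTB, as did all 9 genes, and shared regulation was not tested. Capitals mark matches to 4 motifs searched on both strands. The motif of RUNX factors was TGTGGT. That of GATA factors was AGATAA. That of ETS factors was AGGAAG, and that of E proteins was CAGCTG.
Cd3g, chr9:44980432-44980681, minus strand: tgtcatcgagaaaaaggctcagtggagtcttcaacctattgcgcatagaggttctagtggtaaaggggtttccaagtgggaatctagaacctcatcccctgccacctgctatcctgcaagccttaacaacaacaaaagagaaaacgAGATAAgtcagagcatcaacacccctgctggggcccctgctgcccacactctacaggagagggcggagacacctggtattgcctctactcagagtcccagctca
Cd3d, chr9:44981536-44981785, plus strand: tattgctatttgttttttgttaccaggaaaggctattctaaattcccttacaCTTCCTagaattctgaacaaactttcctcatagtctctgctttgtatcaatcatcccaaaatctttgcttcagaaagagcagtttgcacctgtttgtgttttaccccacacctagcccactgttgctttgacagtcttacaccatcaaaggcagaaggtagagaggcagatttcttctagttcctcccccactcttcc
Cd3g held 1 GATA match and Cd3d 1 ETS match. Over all 32851 promoter windows of this length in the table, 9.99% held the GATA letters, 29.5% the ETS letters, 14% the RUNX letters and 13% the E protein letters. Of the 9 genes 7 had promoter entries, with 10 windows in all. The ETS letters occurred in 7 of these windows, RUNX in 2, GATA in 1 and E protein in 0. Lck and Zap70 each counted more than once among the ETS windows and were also the genes of the RUNX windows.

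Library totals ranged from 23070917 to 27185168 estimated reads. HTB replicate 2 stood apart through skeletal muscle and fat transcripts: the summed CPM (reads scaled to library size) of 5 muscle markers was 9966 there and 4.01 to 47.3 in the other 9 libraries, and that of 4 adipocyte markers was 2586 against 10.4 to 25.9. LTB replicate 1 held the most T cell transcripts of any library. Epithelial markers of colon were scarce: the keratin genes Krt8, Krt18, Krt19 and Krt20 never passed 0.21 CPM and Epcam never passed 1.82 CPM, while Cdh1 averaged 3.45 CPM in HTB and 8.90 CPM in LTB. Because whole tumours were sequenced, fewer T cells and less RNA per T cell cannot be told apart.

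The question was whether the T cell signalling core differed between tumours of high and low burden. All 9 genes had lower mean levels in HTB, and 7 of them fell past the threshold: Cd3d, Cd3g, Cd247, Cd4, Cd8b1, Lck and Zap70. Cd8a and Cd3e had log2 fold changes of similar size but missed the threshold. The test was edgeR's quasi-likelihood test with Benjamini-Hochberg adjustment over 13470 genes, at an adjusted p under 0.05; of all genes tested, 7.51% were lower in HTB by the same rule and 3.90% higher. The median log2 fold change was -1.76 over the 9 genes and 0.02 over all genes tested. All 9 genes passed the filter on low counts.

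Among the CD3 chains, Cd3d, a partner of CD3 epsilon in the receptor, had 13.6, 5.37, 6.67, 4.28 and 4.18 CPM in LTB replicates 1 to 5. In HTB replicates 1 to 5 it had 3.31, 1.78, 0.769, 0.689 and 0.952 CPM. Every HTB library lay below every LTB library, a pattern that 7.06% of all genes tested showed. Mean Cd3d fell to 1.5 ± 1.10 CPM in HTB, against 6.82 ± 3.92 CPM in LTB (SD, n = 5 each). Its log2 fold change was -2.18 ± 0.50 (SE; edgeR adjusted p = 0.0220). The lowest single count among the 9 genes was that of Cd3d in HTB replicate 4, 19 reads (95% Poisson interval 11.4 to 29.7, counting error only).

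Cd3g, which pairs with another CD3 epsilon chain, had 39.0, 16.6, 17.4, 9.28 and 7.21 CPM in LTB replicates 1 to 5. In HTB it had 8.16, 5.06, 3.48, 2.07 and 3.0 CPM. Only HTB replicate 1 reached the LTB range, where it exceeded LTB replicate 5. The log2 fold change was -2.04 ± 0.50 (edgeR adjusted p = 0.0271).

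Cd3e encodes CD3 epsilon, the chain that both of those pairs contain. It had 19.1, 9.22, 8.21, 4.16 and 3.42 CPM in LTB replicates 1 to 5 and 4.84, 3.19, 2.05, 1.16 and 1.76 CPM in HTB replicates 1 to 5. HTB replicate 1 lay above LTB replicates 4 and 5. Its log2 fold change was -1.76 ± 0.52 (edgeR adjusted p = 0.0508). The value passed with DESeq2 (adjusted p = 0.0049) and without HTB replicate 2 (edgeR adjusted p = 0.0386). The authors' deposited q of 0.0059 is also attributed to DESeq2 and is not separate support. Cd3e did not pass with limma voom (adjusted p = 0.0746), and without LTB replicate 1 the change was -1.27 (edgeR adjusted p = 0.114).

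Cd247, the zeta chain with its 3 ITAMs, had 10.5, 4.44, 4.15, 3.70 and 3.38 CPM in LTB replicates 1 to 5. In HTB it had 2.70, 2.74, 1.54, 1.52 and 1.25 CPM, and the groups did not overlap. The log2 fold change was -1.43 ± 0.37 (edgeR adjusted p = 0.0333). LTB replicate 1 was far above the other LTB libraries, and without it the change was -1.01, still past the threshold.

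Of the kinases, Lck had 32.03, 15.1, 17.6, 15.2 and 10.8 CPM in LTB replicates 1 to 5 and 9.11, 6.60, 4.76, 4.93 and 3.04 CPM in HTB replicates 1 to 5. The groups did not overlap. The log2 fold change was -1.68 ± 0.34 (edgeR adjusted p = 0.0124), the smallest p of the 9 genes, and it passed under each of the 18 alternative fits, at -1.91 to -1.37.

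Zap70 had 15.0, 7.71, 6.75, 6.83 and 3.83 CPM in LTB replicates 1 to 5. In HTB it had 5.03, 2.41, 2.38, 2.86 and 2.60 CPM. HTB replicate 1 lay above LTB replicate 5, and the other HTB libraries lay below every LTB library. The log2 fold change was -1.39 ± 0.35 (edgeR adjusted p = 0.0309).

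**Figure D1:**
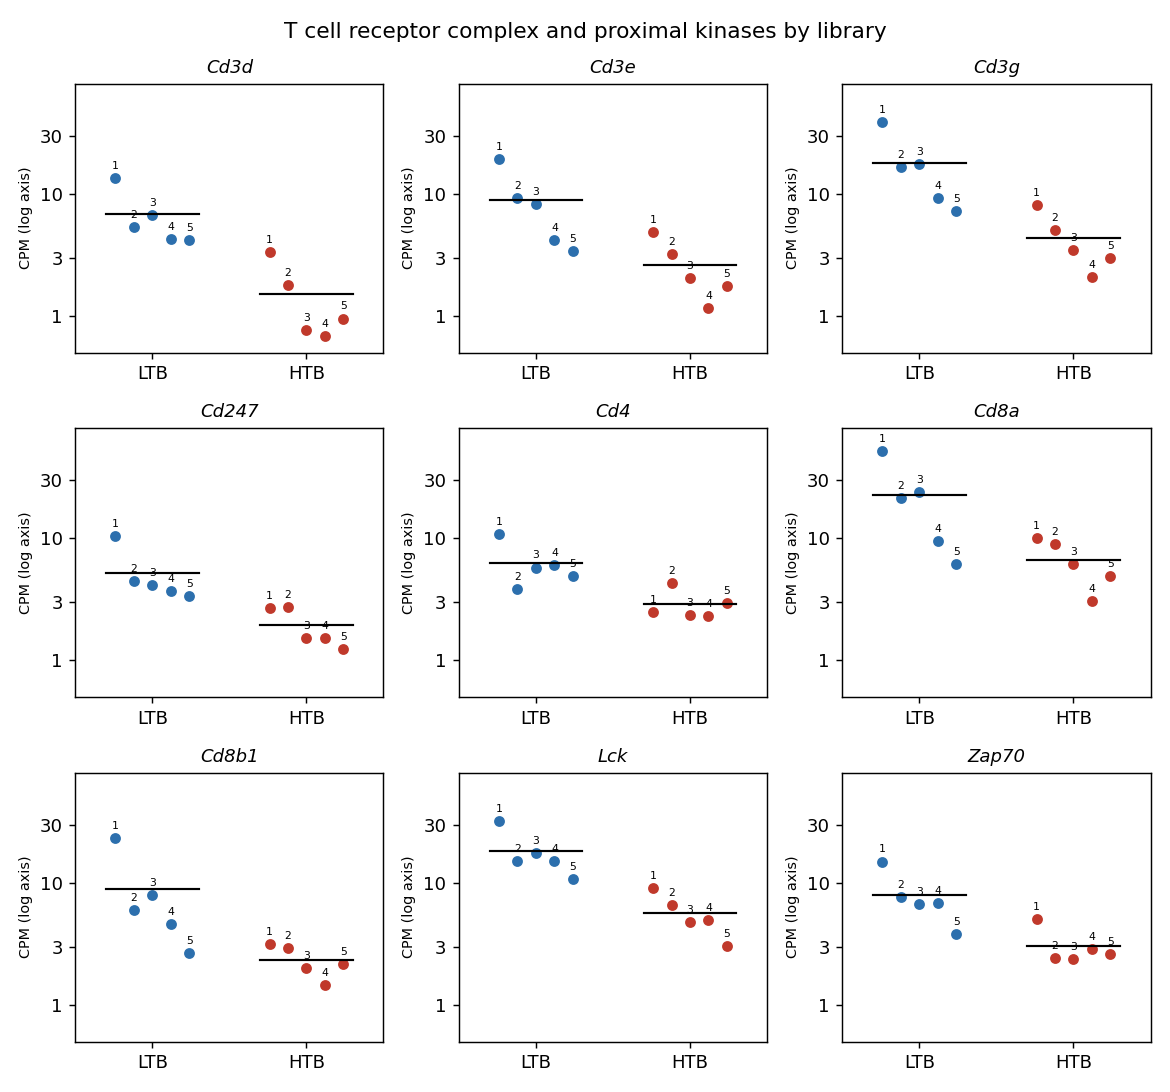
CPM on a log axis for each of the 9 genes, 1 point per library with its replicate number, blue for LTB and red for HTB; the black line is the group mean (n = 5). LTB replicate 1 is the highest library in every panel, and Cd3d, Cd247 and Lck show no overlap between the groups.

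The coreceptor genes spread more widely. Cd8a, the chain that carries the LCK-binding cysteines, had 52.3, 21.5, 23.8, 9.51 and 6.18 CPM in LTB replicates 1 to 5. In HTB it had 10.1, 8.96, 6.15, 3.08 and 4.95 CPM. LTB replicates 4 and 5 lay inside the HTB range. Mean Cd8a was 22.7 ± 18.2 CPM in LTB and 6.64 ± 2.87 CPM in HTB (SD, n = 5 each). The fitted change was -1.77 ± 0.54 (edgeR adjusted p = 0.0583). Cd8a passed with DESeq2 (adjusted p = 0.0047) and without HTB replicate 2 (edgeR adjusted p = 0.0407). The authors' deposited q of 0.0057, attributed to DESeq2 too, is not separate support. With limma voom the adjusted p was 0.133, and without LTB replicate 1 the change was -1.20 (edgeR adjusted p = 0.132). Without HTB replicate 3, 4 or 5 the adjusted p of Cd8a was 0.118 to 0.125 and that of Cd3e 0.107 to 0.114.

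Cd8b1, the beta chain found on conventional CD8 T cells, had 23.3, 5.99, 7.91, 4.58 and 2.67 CPM in LTB replicates 1 to 5 and 3.17, 2.95, 2.01, 1.45 and 2.16 CPM in HTB replicates 1 to 5. The groups overlapped through LTB replicate 5 alone. The log2 fold change was -1.92 ± 0.53 (edgeR adjusted p = 0.0408). Without LTB replicate 1 it was -1.17 (adjusted p = 0.0577).

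Cd4, the class II coreceptor, had 10.9, 3.81, 5.77, 6.03 and 4.94 CPM in LTB replicates 1 to 5. In HTB it had 2.51, 4.27, 2.34, 2.32 and 2.97 CPM. HTB replicate 2 exceeded LTB replicate 2. The log2 fold change was -1.13 ± 0.29 (edgeR adjusted p = 0.0344), the smallest change of the 9, and without LTB replicate 1 it was -0.84 (adjusted p = 0.0531).

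The count of genes that passed depended on the libraries. It was 1 (Lck) without HTB replicate 3, without HTB replicate 4 or without HTB replicate 5, where 4.13%, 4.17% and 5.11% of all genes tested were lower. It was 2 (Lck and Cd3d) without LTB replicate 3, where the background was 5.16%. Without LTB replicate 1 it was 4 (Lck, Cd3d, Cd3g and Cd247), against 6.03%. Without HTB replicate 2 all 9 passed, against 12.7%, and without that library and LTB replicate 1 together 7 passed, against 12.4%. No gene changed sign in any of these fits. The count was 6 without HTB replicate 1 (6.22% of all genes lower), 5 without LTB replicate 2 (6.60%), 7 without LTB replicate 4 (6.29%) and 9 without LTB replicate 5 (6.05%).

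With all libraries, 9 of the 9 genes passed by DESeq2's own test, where 10.2% of genes were lower, and 6 by limma voom (7.42%). With DESeq2's size factors or upper-quartile factors in edgeR the count was 7, with backgrounds of 7.42% and 7.43%. It was 6 with no filter on low counts (4.74%), 8 where 1 CPM in 5 libraries was required (7.62%) and 8 with the replicate number as a block (5.57%). At an adjusted p under 0.01 it was 0 in edgeR (2.45%), although all 9 genes had an unadjusted p under 0.05, and at 0.1 it was 9 (11.1%). In simulated data of this design, changed genes were drawn from all genes averaging above 1 CPM. There edgeR recovered 80% of genes changed 2-fold and 36% of those changed 1.5-fold. These shares do not give the recovery to expect for the 9 genes, whose SEs were 0.29 to 0.54.

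**Figure D2:**
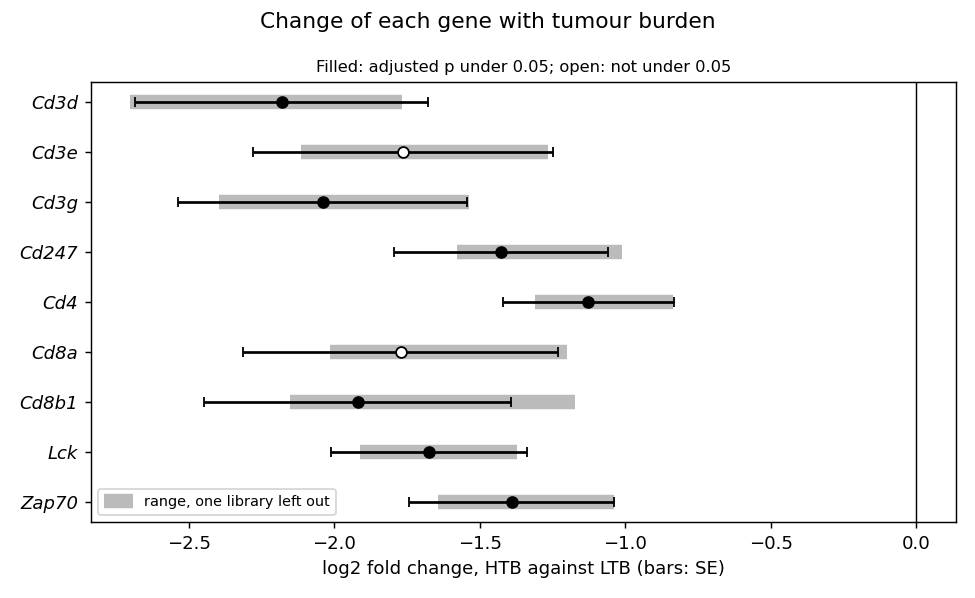
Log2 fold change of each gene, HTB against LTB, with its SE; grey bars give the range when each library was left out in turn. Cd3d, at -2.18, lies farthest from 0 and Cd4, at -1.13, nearest; open circles mark Cd3e and Cd8a, which did not pass.

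Levels were compared between genes per kilobase of exon, using merged exons of protein-coding GENCODE transcripts. In LTB, Cd3g stood at 17.5 ± 12.3 CPM per kilobase (SD, n = 5), followed by Lck at 7.84 ± 3.51, Cd8a at 7.23 ± 5.81, Cd3e at 6.04 ± 4.29, Cd8b1 at 5.99 ± 5.57, Cd3d at 4.22 ± 2.42, Zap70 at 3.57 ± 1.85, Cd4 at 2.02 ± 0.88 and Cd247 at 1.15 ± 0.65. Neighbours in this order differed by less than 1 SD of the higher gene, apart from Cd4 and Cd247, which differed by about 1 SD. This SD is the spread between libraries and does not measure how certain the order is within a library, which was not tested. In HTB, Cd3g was again highest at 4.26 ± 2.33 CPM per kilobase and Cd247 lowest at 0.43 ± 0.16, with Cd3d and Cd4 level at 0.93. These levels depend on the exon models used.

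The relation of Cd8a to Cd4 was taken as the ratio of reads within each library, which needs no scaling to depth. Cd8a outnumbered Cd4 in every library. The ratio was 4.79, 5.64, 4.12, 1.58 and 1.25 in LTB replicates 1 to 5 and 4, 2.10, 2.63, 1.33 and 1.67 in HTB replicates 1 to 5. LTB replicates 1, 2 and 3 held the highest ratios and LTB replicate 5 the lowest, so the HTB values lay wholly inside the LTB range. The exons of Cd8a (3132 bases) and Cd4 (3108 bases) are of nearly the same length, so the ratio per kilobase hardly differs from that of reads.

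On the log2 scale, with 1 read added to each count, the mean ratio of Cd8a to Cd4 was 1.11 ± 0.61 in HTB and 1.55 ± 0.99 in LTB (SD, n = 5 each). The difference was -0.44 ± 0.52 (SE; two-sided exact permutation test over the 252 divisions of the libraries, p = 0.413; the smallest p this design allows is 0.0079). Its 95% interval, from the same exact test, ran from -1.63 to 0.86, so these libraries leave room for a fall or a rise of the ratio with burden. The larger fold change of Cd8a than of Cd4 was therefore not distinguishable from the spread between libraries. Cd8b1 against Cd4 gave a difference of -0.49 ± 0.40 (exact permutation p = 0.270), with a 95% interval of -1.36 to 0.53.

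**Figure D3:**
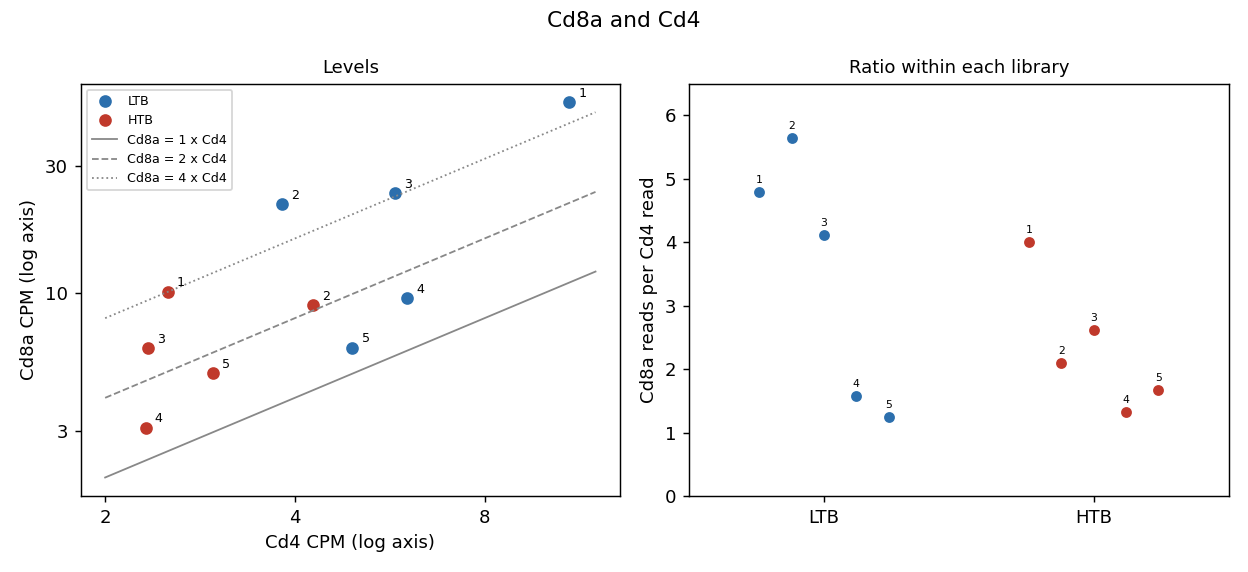
Left, Cd8a against Cd4 in CPM on log axes, with lines where Cd8a is 1, 2 or 4 times Cd4; right, Cd8a reads per Cd4 read, 1 point per library with its replicate number, blue for LTB and red for HTB. The HTB ratios, 1.33 to 4, lie within the LTB ratios, 1.25 to 5.64.

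The likeness of the 9 genes across libraries was described with Cd3e as the reference. After the group means were taken off log2(CPM + 1), Pearson's r over the 10 libraries between Cd3e and the other genes was 0.995 for Cd3g, 0.98 for Cd8a, 0.93 for Cd3d, 0.92 for Cd8b1, 0.89 for Cd247, 0.86 for Lck, 0.85 for Zap70 and 0.53 for Cd4. Without LTB replicate 1 the values were 0.96 for Cd8a, 0.75 for Lck, 0.70 for Zap70 and 0.00 for Cd4. These values describe 10 libraries that share composition and depth effects; they were not tested, nor was the difference between them.

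Apart from the 9 genes themselves, those whose levels were most like Cd3e by the same measure, among 12323 genes at 1 CPM or more, were Cd27 (r = 0.997), a costimulatory receptor, Cxcr6 (0.99), a chemokine receptor of tissue T cells, Ms4a4b (0.97), Ubash3a (0.97), a phosphatase-family regulator of receptor signalling, and Pdcd1 (0.97), which encodes PD-1. With the 9 again left out, those most like Cd8a were Pdcd1 (0.98), Cd27 (0.98), Ms4a4b (0.97), Themis (0.97), a receptor signalling protein of T cells, and Cxcr6 (0.96). With the same genes left out, those most like Cd4 were Srxn1, Fabp5, Ccdc25, Cyr61 and Plod3, each at r = 0.96, and 0.90 to 0.92 without LTB replicate 1. Of these last genes Srxn1 encodes an antioxidant enzyme, Fabp5 a fatty acid-binding protein and Plod3 a collagen-modifying enzyme.

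Ratios within libraries also showed whether other members moved apart. Cd3g reads per Cd3e read were 2.04, 1.80, 2.13, 2.23 and 2.10 in LTB replicates 1 to 5 and 1.68, 1.58, 1.70, 1.78 and 1.71 in HTB. The groups did not overlap, and the difference on the log2 scale was -0.29 ± 0.06, with a 95% interval of -0.40 to -0.16 (exact permutation p = 0.0079, the smallest possible; adjusted over 13 ratios, 0.103). Cd3d against Cd3e differed by -0.62 ± 0.23 (95% interval -1.14 to -0.06; exact permutation p = 0.0317, adjusted 0.206). After adjustment 0 of the 13 ratios passed, and these 2 were under an unadjusted 0.05. A single ratio at the smallest possible p could not pass this adjustment by itself. The adjusted value therefore cannot decide whether Cd3g and Cd3e moved apart.

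For the alpha and beta chain genes of CD8 no difference in ratio was detectable. Cd8b1 per Cd8a read ranged from 0.278 to 0.482 in LTB and from 0.315 to 0.471 in HTB, a log2 difference of -0.05 ± 0.19 (95% interval -0.50 to 0.39; exact permutation p = 0.810). For Lck against Cd3e the difference was -0.02 ± 0.32 (95% interval -0.82 to 0.75), and for Zap70 against Cd3e it was 0.34 ± 0.34 (-0.49 to 1.18).

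Ptprc, which encodes the leukocyte marker CD45, fell to 35.3 ± 7.19 CPM in HTB, against 91.4 ± 31.2 CPM in LTB (SD, n = 5 each). The fitted change was -1.37 ± 0.22 on the log2 scale (edgeR adjusted p = 0.0052). Set against Ptprc within each library, Cd3e differed between groups by -0.32 ± 0.38 on the log2 scale (95% interval -1.16 to 0.61; exact permutation p = 0.421). The same difference was -0.17 ± 0.43 for Cd8a (-1.18 to 0.88) and 0.27 ± 0.30 for Cd4 (-0.47 to 0.97). No loss of Cd3e, Cd8a or Cd4 transcripts beyond that of Ptprc was detectable with these libraries, and the intervals do not bound it closely. The other members were not set against Ptprc.

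**Figure D4:**
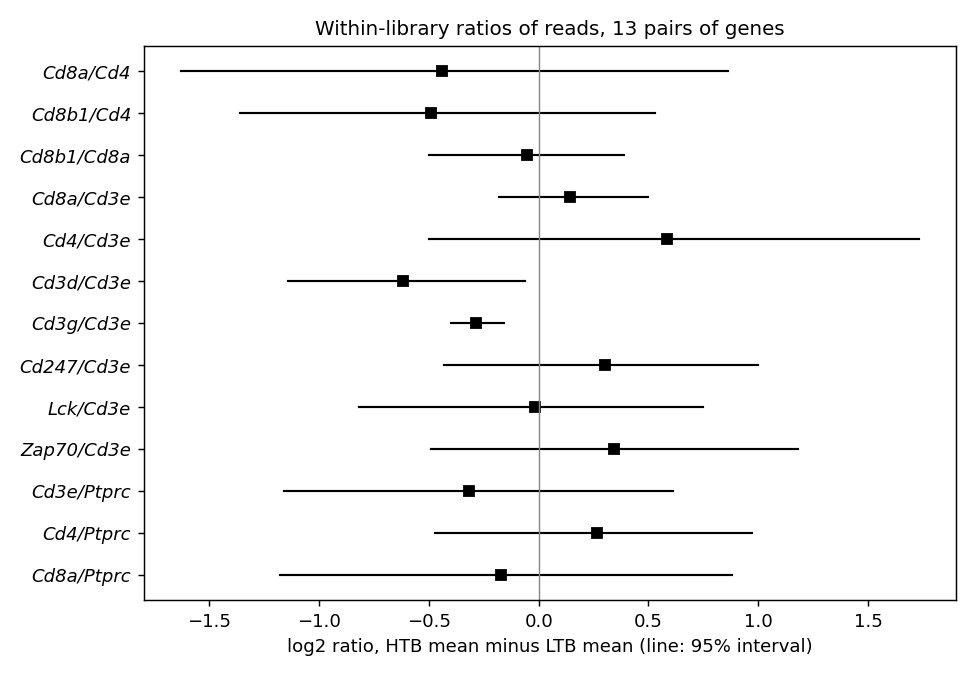
Difference in log2 ratio of reads between HTB and LTB for 13 pairs of genes, squares, with 95% intervals from exact permutation tests (n = 5 per group). Cd3g and Cd3d against Cd3e are the pairs whose interval leaves out 0, before adjustment over the 13.

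The genes that act beside and after this core were then counted in lists. Of 60 tested genes in 4 lists, 28 fell and 0 rose, against 7.51% lower and 3.90% higher among all genes. Of 10 accessory and costimulatory receptors 9 fell, with a median log2 fold change of -1.91. Cd226, an activating receptor of T and natural killer cells, changed by -2.28 ± 0.35 (SE; edgeR adjusted p = 0.0037), and Icos, an inducible costimulator, by -2.38 ± 0.46. Cd2, an adhesion receptor, changed by -2.24 ± 0.46 and Slamf6 by -1.66 ± 0.31. Cd6 was the receptor that did not pass, at -1.71 ± 0.54 (edgeR adjusted p = 0.0634). The count of receptors was 5 without HTB replicate 3, 4 or 5 or LTB replicate 1 or 3. In those fits 4.13% to 6.03% of all genes tested were lower. The count was 6 without LTB replicate 2 (6.60%).

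Of 16 adaptors and kinases that act with or after ZAP70, 7 fell, with a median of -0.98. Lat, the membrane adaptor that ZAP70 phosphorylates, fell to 1.36 ± 0.70 CPM in HTB, against 6.23 ± 3.14 CPM in LTB (SD, n = 5 each; log2 change -2.19 ± 0.41, edgeR adjusted p = 0.0094). Txk, a TEC-family kinase gene, changed by -1.53 ± 0.28, and the adaptor gene Sla2 by -1.20 ± 0.24. Plcg1, the phospholipase that LAT recruits and that many cell types express, stood at 0.34 ± 0.14 (edgeR adjusted p = 0.143).

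Among 15 tested genes for FYN and the regulators of these kinases, 7 fell and the median was -0.37. They included Ptprc, whose phosphatase acts on LCK, Ptpn22, a phosphatase that restrains LCK and ZAP70 (-1.45 ± 0.31), Dok2, an inhibitory adaptor (-1.18 ± 0.24), and Csk, the kinase that inhibits LCK (-0.32 ± 0.07). The count of regulators was 3 without HTB replicate 4 (4.17% of all genes lower). It was 4 without HTB replicate 5 (5.11%) or LTB replicate 3 (5.16%). Of 19 genes for the steps to calcium, RAS and NF-kappa B, 5 fell and the median was -0.08. Rasgrp1, a RAS activator of lymphocytes, changed by -1.53 ± 0.22 (edgeR adjusted p = 0.0029), Dgka by -0.68 ± 0.10 and Malt1 by -0.44 ± 0.07. The count over the 4 lists was 18 without HTB replicate 4, where 4.17% of all genes were lower.

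**Figure D5:**
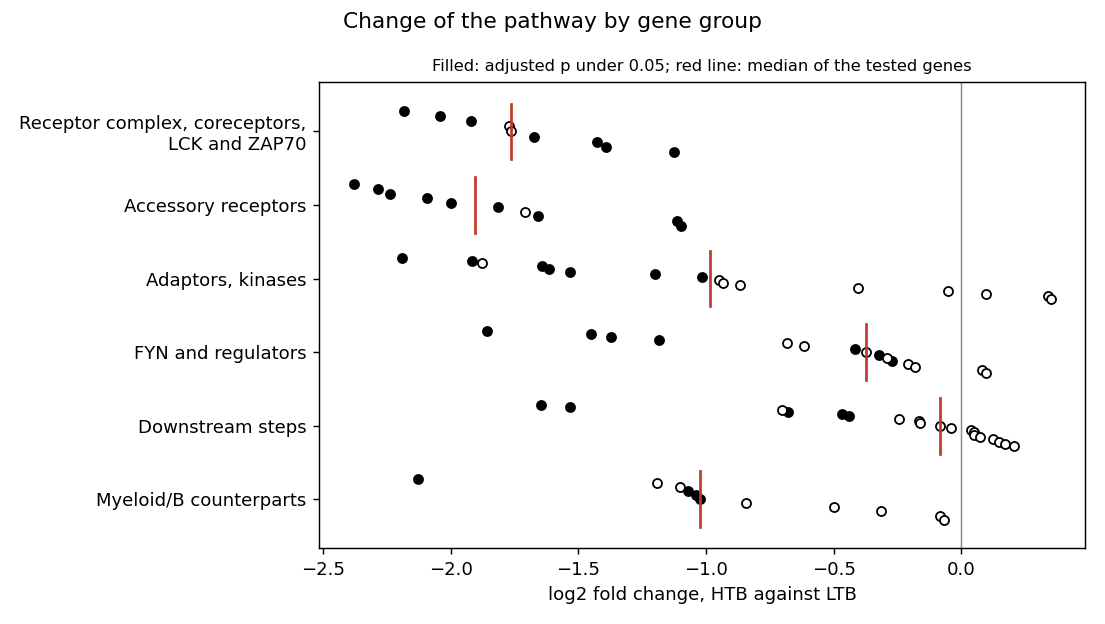
Log2 fold change of each tested gene, HTB against LTB, by group; filled circles had an adjusted p under 0.05 and the red line is the median of the group. The medians run from -1.91 for accessory receptors and -1.76 for the receptor core to -0.08 for downstream steps.

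Genes that serve the same roles outside T cells were lower in part. Of 11 tested counterparts in myeloid cells and B cells 4 fell, with a median of -1.02: Fgr, a myeloid SRC kinase (-2.13 ± 0.33), Lat2, a LAT relative (-1.07 ± 0.20), and the ITAM chain genes Fcer1g (-1.04 ± 0.26) and Tyrobp (-1.02 ± 0.27). Syk, the ZAP70 relative that myeloid and B cells use, stood at 65.1 ± 3.45 CPM in HTB and 69.0 ± 9.09 CPM in LTB (SD, n = 5 each; log2 fold change -0.09 ± 0.09, edgeR adjusted p = 0.548). The count of counterparts was 2 without HTB replicate 3, 4 or 5 or LTB replicate 3 (4.13% to 5.16% of all genes lower). It was 7 without HTB replicate 2 (12.7%).

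Markers of natural killer and dendritic cells, which can express some of the 9 genes, were counted in the same fit. So were markers of regulatory T cells, which are themselves CD4 T cells. Of all genes tested 7.51% were lower. With a single library left out the share was 4.13% to 6.60%, apart from 12.7% without HTB replicate 2. Of 8 natural killer markers 2 fell, Ncr1 (-1.17 ± 0.27) and Klre1 (-1.66 ± 0.46); Klra8 stood at -1.43 ± 0.44 and Gzma at -1.79 ± 0.56. The count was 0 without HTB replicate 5, 1 without HTB replicate 3 or 4 or LTB replicate 1, 2 or 4, 3 without HTB replicate 1 and 5 without HTB replicate 2. The summed CPM of the list was 57.4 to 103 in HTB and 128 to 259 in LTB. Its largest parts were Klra4 (mean 35.2 CPM in HTB and 43.0 CPM in LTB) and Prf1 (28.7 CPM and 75.5 CPM). Ncr1 averaged 1.67 CPM in HTB and 3.76 CPM in LTB. How far T cells contributed to Prf1 or Gzma was not tested. Of 6 markers of type 1 conventional dendritic cells 1 fell, Itgae, which T cells also express; the count was 0 without HTB replicate 3 or 4 or LTB replicate 1, 2, 3 or 5 and 2 without HTB replicate 2. The summed CPM was 32.1 to 44.1 in HTB and 41.9 to 53.7 in LTB. Most of that sum was Tlr3 alone, at a mean of 30.6 CPM in HTB and 37.7 CPM in LTB. Among the markers of this list other than Itgae, Xcr1 had a log2 fold change of -1.28 ± 0.43 (edgeR adjusted p = 0.0798). Its HTB libraries held 0.471 to 1.68 CPM and its LTB libraries 0.979 to 3.08 CPM. Batf3 stood at -0.89 ± 0.60, Cadm1 at -0.64 ± 0.58, Clec9a at -0.45 ± 0.51 and Tlr3 at -0.30 ± 0.12. All 4 regulatory T cell markers fell, Foxp3 (-2.57 ± 0.39), Il2ra (-1.97 ± 0.38), Ctla4 (-1.96 ± 0.53) and Ikzf2 (-0.49 ± 0.14), with a summed CPM of 6.72 to 14.2 in HTB and 19.2 to 43.3 in LTB. Of these, 2 passed without HTB replicate 1, 3 or 4 or LTB replicate 1, 3, 4 or 5. The part of these cells in the levels of Cd247, Lck, Zap70, Cd8a and Cd4 was not tested.

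Of 5 markers of other dendritic cells 2 fell, Ccr7 and Flt3, with summed CPM of 3.37 to 20.04 in HTB and 9.49 to 17.3 in LTB. The 20.04 was HTB replicate 2, and the other HTB libraries reached 6.08 at most. Without that library all 5 fell (12.7% of all genes lower), with a median of -1.79 against -0.77 with it. The count was 1 without HTB replicate 3, 4 or 5 or LTB replicate 1, 3, 4 or 5 (4.13% to 6.29%). Of 7 macrophage markers 1 fell, against 7.51% of all genes tested. It was Cd68 (-0.64 ± 0.19, edgeR adjusted p = 0.0496), and the summed CPM overlapped between HTB (366 to 683) and LTB (471 to 962). That call was lost with DESeq2's size factors, upper-quartile factors, limma voom, no filter and the replicate block. The macrophage count was 1 without LTB replicate 1 (6.03% of all genes lower) and 3 without LTB replicate 4 (6.29%). It was 0 without any other single library. Ms4a1, a B cell marker, lay between 0 and 0.153 CPM over the 10 libraries, and the summed CPM of the B cell list was 1.21 to 2.75 in HTB and 2.54 to 5.0 in LTB. The constant-chain genes of the alpha, beta, gamma and delta receptor chains were not found among the deposited genes under the symbols searched. Those receptor chains were therefore not analysed here. Ptcra, the pre-receptor alpha chain of thymocytes, stood at 0.46 ± 0.54 (edgeR adjusted p = 0.606).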

How the data were processed

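RNA-seq of 10 subcutaneous MC38 tumours was analysed from 1 table. The authors deposited an estimated count for each gene in each library, with no depth scaling. Of these, 86.4% were whole numbers (tolerance 1e-09); the others were rounded here. The genome build was GRCm38, per the submitters' processing notes; the aligner, the counter and any strand setting were not given in the sources used here. Overlapping and antisense genes may therefore share reads. The same deposited table holds the authors' log2 fold changes with p-values and q-values, attributed to DESeq2 per the file headers, positive where HTB is higher. A line without a gene was left out.

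Counts were tested with edgeR 4.0.16 (R 4.3.3; TMM, filterByExpr, quasi-likelihood, group as the only term, Benjamini-Hochberg over 13470 genes). SE is the log2 fold change divided by the root of its F statistic. CPM used TMM-scaled totals. Ratios used 1 added read and exact permutation tests; their 95% intervals are the shifts that test did not refuse. Simulated counts of 13470 genes, with 50 changed at each fold, were used to check the edgeR script; 2.47% of its calls were false. Libraries of the same group all differed by more than sampling noise. Alternatives were DESeq2 1.42.0, limma 3.58.1 voom, other scalings, filters, thresholds and pseudocounts, a replicate block, and fits without single libraries. The 9 genes, the lists and the tests were chosen with earlier results of these data known. Genes named were the 9, Ptprc, the 4 of smallest p in a list, and the 5 most like Cd3e, Cd8a and Cd4, leaving out the 9 and predicted genes. Cd6, Plcg1, Syk, Ms4a1, Cadm1, Clec9a, Klra4, Prf1 and the epithelial genes were chosen after their values were seen. A few genes this rule would name are not reported here.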

Additional observations from a re-analysis of the deposited data

Results flagged for a closer look

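Of 44 sets of 5 libraries examined (9 genes and 13 ratios in each group), 4 held a library far from the other 4. The cut-off flags about 1 in 20 independent sets of normal values. CPM was not put on a log scale here and the sets share libraries, so 4 of 44 cannot be weighed against that rate. LTB replicate 1 was the high library for Cd3d (13.6 CPM, the other LTB libraries 4.18 to 6.67), Cd247 (10.5 CPM, others 3.38 to 4.44) and Cd8b1 (23.3 CPM, others 2.67 to 7.91). HTB replicate 1 was the high library for Zap70, at 5.03 CPM where the other HTB libraries had 2.38 to 2.86.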

How the results depend on the processing

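Of the 9 genes, 7 were lower in HTB in the analysis as reported. The count was 0 at an adjusted p of 0.01 (2.45% of all genes lower) and 9 at 0.1 (11.1%). With each library left out it was 1 to 9 (4.13% to 12.7%). It was 6 to 9 under DESeq2, limma voom, other scalings, other filters and the replicate block. The count over the 4 pathway lists, 28 as reported, was 18 to 37 with each library left out. The 18 was without HTB replicate 4 (4.17% of all genes lower) and the 37 without HTB replicate 2 (12.7%). The log2 difference in the Cd8a to Cd4 ratio ranged from -0.75 to -0.21 and passed under none of its 14 alternatives.

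The replicate numbers share only a number: same-numbered libraries of the 2 groups correlated at -0.02 to 0.10. With the replicate block 8 of the 9 genes passed, Cd3e (adjusted p = 0.0050) and Cd8a (0.0226) among them and Cd4 not (0.0996), and the Cd8a to Cd4 difference stayed at -0.44 (exact sign-flip p = 0.250, smallest possible 0.0625).

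Among ratios that did not pass, 3 changed sign. With each library left out, Cd8b1 to Cd8a ran from -0.169 to 0.0289, Lck to Cd3e from -0.231 to 0.145 and Cd8a to Ptprc from -0.425 to 0.0673. Cd8b1 to Cd8a was 0.0421 with HTB replicate 2 and LTB replicate 1 left out together. The cause was not tested. Cd3d had 19 to 91 reads in HTB libraries and Cd247 34 to 74, which limits their precision.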
